A study of Danio rerio with 4 samples.

Results

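The genes described here are 10 immediate early transcription factor genes of the AP-1 and EGR groups, chosen by name: fosab, fosl1a, fosl2, jun, junba, junbb, jund, egr1, egr3 and atf3. All 10 were found among the 14781 genes of the count table, and all passed the filter on low counts. RNA from the whole gut, labelled as total RNA, was sequenced in 4 untreated adult zebrafish. Of these, 2 fish were homozygous and 2 heterozygous for the st95 mutation of irf8, the gene of a transcription factor required for macrophage development. No fish of either group was wild type, so both groups carried the mutant allele. Each library is the whole gut of a fish and mixes epithelium, immune cells, muscle, nerve and any attached pancreas or liver.

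AP-1 is a dimer of basic leucine zipper proteins, usually a Fos protein with a Jun protein or 2 Jun proteins, that binds DNA and changes transcription. EGR proteins are zinc finger factors, and Atf3 is a basic leucine zipper factor of stress responses that can pair with Jun proteins. The genes of these factors are called immediate early because growth factors, cytokines, cell stress and tissue handling induce them rapidly, with no need for new protein. In the gut they are known for responses of the epithelium to injury and for activation of lymphocytes and myeloid cells. Handling times between dissection and lysis are not given in the sources used here.

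Library totals ranged from 6350840 to 10391963 counts, and 9701 genes were tested. Levels are given in CPM, counts scaled to a common library size after TMM normalisation, and 3 counts correspond to 0.277 to 0.512 CPM. Enterocyte marker genes, of which 16 of 18 were in the table, took 3.10% to 11.5% of counts, so the labelled tissue's main epithelial markers were present in every library. Heterozygous replicate 2 stood apart: exocrine pancreas markers took 29.4% of its counts, against 0.421% to 4.02% in the other 3 libraries. Log2 fold changes without that library are given below for jun, fosab, fosl1a, fosl2, egr3 and atf3. For junba, junbb, jund and egr1 they were 1.83, 2.24, 2.13 and 3.45. The targeted gene irf8, on chromosome 18 in the genome build danRer10, had 25 and 25 counts in homozygous and 30 and 50 in heterozygous libraries (log2 fold change -0.82 ± 0.58, SE). This level does not check the genotype labels, because a mutation need not remove the transcript. None of the 10 genes lies on chromosome 18.

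All 10 genes had a higher fitted level in homozygous than in heterozygous gut, and 8 had both homozygous libraries above both heterozygous libraries. The largest fitted differences were those of egr1 (5.61-fold), junba (4.76-fold), jund (4.48-fold) and fosab (3.95-fold), while fosl2 (1.18-fold) was close to even. The median log2 fold change of the 10 genes was 1.89, against -0.05 over all 9701 tested genes. Of all tested genes 46.7% had a fold change above 0, and 19.9% had both homozygous libraries highest. No gene passed the quasi-likelihood test of edgeR after Benjamini-Hochberg adjustment, with 0 of the 10 genes and 0 of all tested genes (0%) called and a lowest adjusted p of 0.699. At an unadjusted p under 0.05, 6 of the 10 genes were higher, against 354 genes (3.65%) of all tested. The 10 genes were chosen with earlier results of these data known, so comparisons with all tested genes do not test the list. DESeq2's Wald test called 3 of the 9 genes it adjusted, junba, junbb and egr1, against 0.422% of all genes called higher by that test. With 1 library left out, DESeq2's calls among the 10 genes changed, and no call held in every such fit. The share of all genes called in those fits was not taken, so their calls are not listed. Each of these fits leaves 1 library in one genotype and takes the spread from the other genotype alone, so the single library is assumed to vary alike. With each library left out in turn, edgeR's log2 fold change ran from 1.71 to 2.87 for junba, 1.48 to 2.3 for junbb, 1.75 to 2.5 for jund and 1.96 to 3.45 for egr1. Exact permutation of 2 against 2 libraries cannot give a two-sided p below 0.33. In a bulk sample, fewer cells of a type and less RNA per cell cannot be told apart.

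**Figure D1:**
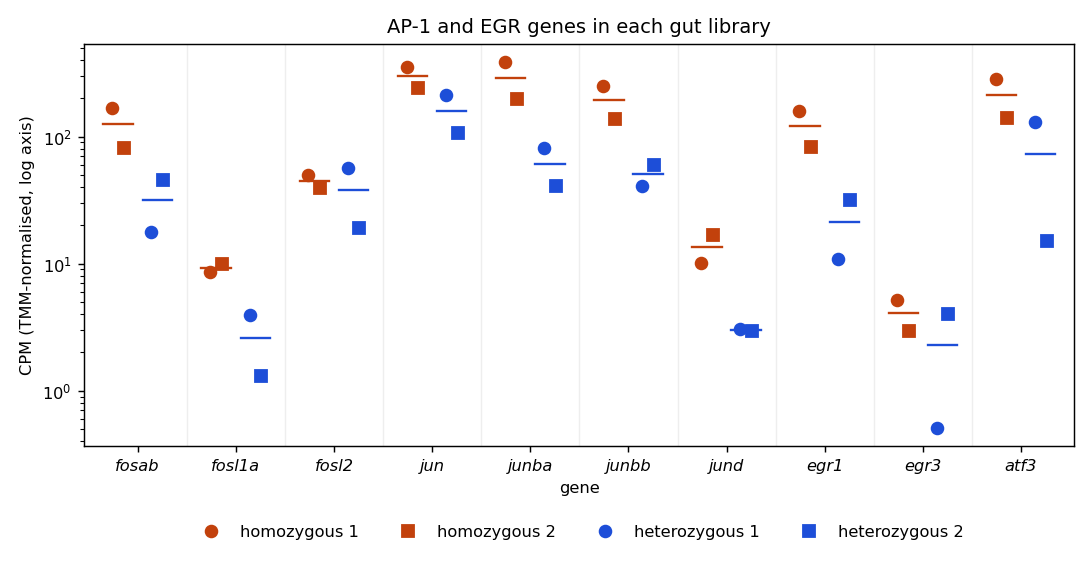
Level of each gene in CPM (log axis) in the 2 homozygous (orange, left) and 2 heterozygous (blue, right) gut libraries, with circles for replicate 1, squares for replicate 2 and lines for group means. The groups overlap for fosl2 and egr3 and do not overlap for the other 8 genes.

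The Jun genes encode the partners that AP-1 dimers share. jun, the single-exon gene of the founding member (chromosome 20, 15653244 to 15655100, plus strand, danRer10), was at 355 and 239 CPM in homozygous and 214 and 106 CPM in heterozygous libraries. Its groups touch closely, since the lower homozygous library was 1.12 times the higher heterozygous one, and the log2 fold change was 0.89 ± 0.54 (SE; edgeR adjusted p = 0.706), with 0.47 without heterozygous replicate 2 and 1.52 without heterozygous replicate 1. junba (chromosome 1, 51098615 to 51100144, minus strand, 1 exon) was at 384 and 197 CPM in homozygous and 81.4 and 40.7 CPM in heterozygous libraries. Each genotype varied by about the same factor, 1.95 and 2.0, and the groups lay 2.42-fold apart at their nearest libraries. Its log2 fold change was 2.25 ± 0.60 (edgeR adjusted p = 0.699, DESeq2 adjusted p = 0.0324).

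junbb, the other junb gene of zebrafish (chromosome 3, 7768569 to 7770219, minus strand, 1 exon), was at 249 and 138 CPM in homozygous and 40.8 and 59.8 CPM in heterozygous libraries. The 2 junb genes ranked the heterozygous libraries differently: replicate 1 was the higher for junba and replicate 2 for junbb. The log2 fold change of junbb was 1.94 ± 0.49 (SE; edgeR adjusted p = 0.699, DESeq2 adjusted p = 0.0395). jund (chromosome 2, 56006470 to 56007467, minus strand, 1 exon), in mammals the Jun gene least dependent on stimulation, was at 10.2 and 16.8 CPM in homozygous and 3.07 and 2.95 CPM in heterozygous libraries. Those values rest on 69 and 182 counts in homozygous and 18 and 27 in heterozygous libraries. Of the 10 genes jund had the closest heterozygous libraries and the widest gap between groups, 3.33-fold at the nearest libraries. Its log2 fold change was 2.16 ± 0.49 (edgeR adjusted p = 0.699, DESeq2 adjusted p = 0.0991).

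The Fos genes encode proteins that bind DNA only with a partner such as a Jun protein. fosab, the zebrafish c-fos gene (chromosome 20, 46648593 to 46650704, minus strand, 4 exons), was at 167 and 81.9 CPM in homozygous and 17.6 and 45.3 CPM in heterozygous libraries. The groups did not overlap and were 1.81-fold apart at their nearest libraries, with a log2 fold change of 1.98 ± 0.63 (SE; edgeR adjusted p = 0.699, DESeq2 adjusted p = 0.167). Leaving out homozygous replicate 1 gave 1.41, the lowest value with 1 library left out, and leaving out heterozygous replicate 2 gave 2.82, the highest. fosl1a, a Fra-1 gene (chromosome 14, 30401240 to 30407372, minus strand, 4 exons), was far scarcer, at 8.59 and 9.97 CPM in homozygous and 3.93 and 1.31 CPM in heterozygous libraries. Only 1 heterozygous library reached the filter's 1.27 CPM for this gene by unscaled counts, so it entered the test partly through its higher group. Its log2 fold change was 1.84 ± 0.67 (edgeR adjusted p = 0.699), with 1.23 without heterozygous replicate 2 and 2.84 without heterozygous replicate 1. fosl2, the Fra-2 gene (chromosome 17, 41313786 to 41329680, plus strand, 5 exons), was at 49.9 and 39.5 CPM in homozygous and 56.5 and 19.1 CPM in heterozygous libraries. Both homozygous values lay between the heterozygous ones, and the log2 fold change of 0.24 ± 0.56 (edgeR adjusted p = 0.926) became -0.35 without heterozygous replicate 2.

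egr1, the zinc finger factor gene often used as a readout of MAP kinase signalling (chromosome 14, 21036475 to 21038716, minus strand, 2 exons), was at 158 and 82.3 CPM in homozygous and 10.9 and 31.6 CPM in heterozygous libraries. The groups did not overlap, and the lower homozygous library was 2.60 times the higher heterozygous one. The log2 fold change was 2.49 ± 0.66 (SE; edgeR adjusted p = 0.699, DESeq2 adjusted p = 0.0368), above that of 99.4% of all tested genes. egr3, a paralogue known in mammals for roles in lymphocytes and muscle spindles (chromosome 8, 50738574 to 50744859, plus strand, 2 exons), was counted 35 and 32 times in homozygous and 3 and 37 times in heterozygous libraries. At 5.18 and 2.95 CPM in homozygous and 0.512 and 4.05 CPM in heterozygous libraries, its groups overlapped, and heterozygous replicate 1 was under the filter's level. Its log2 fold change of 0.79 ± 1.0 (edgeR adjusted p = 0.836) ranged from 0.03 without heterozygous replicate 1 to 2.94 without heterozygous replicate 2.

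atf3 (chromosome 20, 37891799 to 37897858, plus strand, 4 exons), a gene induced by many kinds of cell stress, was at 286 and 139 CPM in homozygous and 131 and 15.1 CPM in heterozygous libraries. The groups barely separated, with the nearest libraries 1.06-fold apart, because heterozygous replicate 1 was almost at the level of homozygous replicate 2. The 8.66-fold gap between the heterozygous libraries was the widest of the 10 genes and gave a large error, with a log2 fold change of 1.54 ± 1.01 (SE; edgeR adjusted p = 0.711). Without heterozygous replicate 2 the value was 0.69, and without heterozygous replicate 1 it was 3.84.

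**Figure D2:**
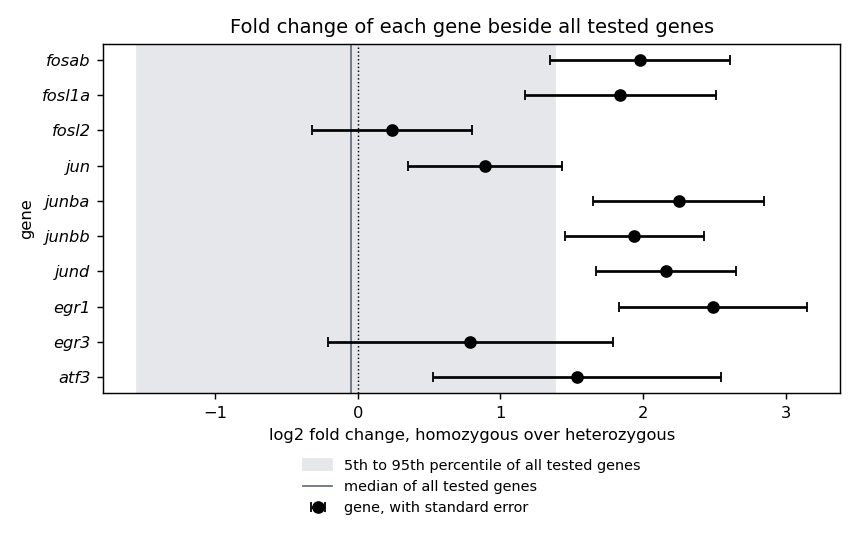
Log2 fold change of each gene, homozygous over heterozygous, with its standard error from edgeR (points and bars), beside the median and the 5th to 95th percentile of all 9701 tested genes (line and grey band, -1.55 to 1.38). All points are above 0, and 7 of the 10 lie beyond the band, while fosl2, jun and egr3 lie inside it.

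The heterozygous fish differed from each other in which of these genes were high. Replicate 1 was the higher of the pair for atf3, fosl2, fosl1a, junba, jun and, by a small margin, jund. Replicate 2 was the higher for egr3, egr1, fosab and junbb. egr3 differed 7.90-fold and atf3 8.66-fold between these fish, in opposite directions; 11.1% of all tested genes differed by 4-fold or more there. Per transcript length, egr1 was 0.144 times the level of atf3 in heterozygous replicate 1 and 3.62 times in replicate 2. The same ratio was 0.954 and 1.03 in the homozygous libraries, inside the heterozygous range. In homozygous fish replicate 1 was the higher for 8 of the 10 genes, the exceptions being jund and fosl1a, and 0 of the 10 differed by 4-fold or more between the libraries, as 6.49% of all tested genes did.

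**Figure D3:**
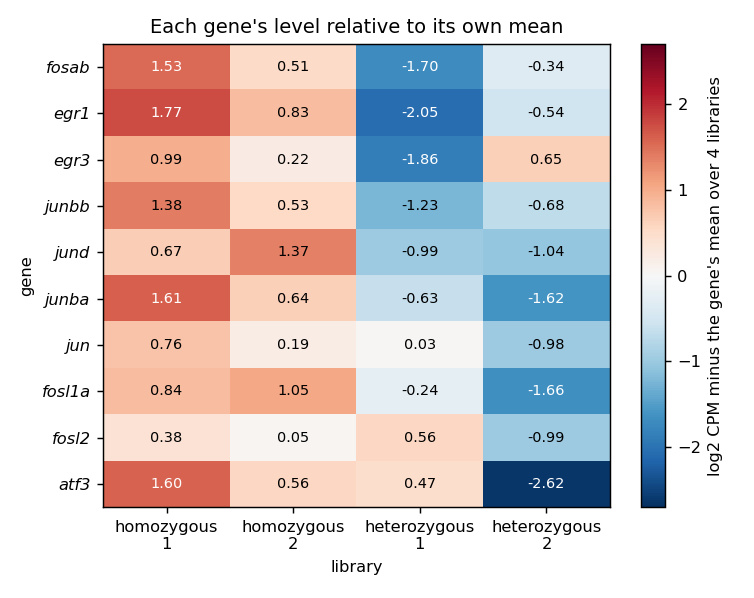
Log2 CPM of each gene in each library minus the gene's own mean over the 4 libraries (red above, blue below; prior count 2). All values in the homozygous columns are above 0, while the heterozygous columns differ in pattern, with egr1 lowest in replicate 1 (-2.05) and atf3 lowest in replicate 2 (-2.62).

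To set genes against each other, levels were divided by transcript length (FPKM, from the table's gene lengths and the TMM-scaled libraries). In homozygous gut the order of mean FPKM was junba (190 ± 86.5, SD, n = 2), jun (160 ± 44.1), junbb (117 ± 47.5), atf3 (79.9 ± 39.2), egr1 (78.1 ± 34.7) and fosab (74.1 ± 35.9). Below these came jund (13.5 ± 4.66), fosl2 (12.3 ± 2.02), fosl1a (5.33 ± 0.56) and egr3 (1.25 ± 0.484). Neighbours from junba to fosab overlapped in their libraries, as did jund and fosl2, while the steps from fosab to jund, from fosl2 to fosl1a and from fosl1a to egr3 did not overlap. In heterozygous gut jun came first at 86.1 ± 41.1 FPKM, above junba (39.9 ± 18.8), junbb (30.5 ± 8.16), atf3 (27.5 ± 30.8), fosab (18.7 ± 11.7) and egr1 (13.8 ± 9.53). fosl2 (10.4 ± 7.26), jund (3.02 ± 0.0841), fosl1a (1.51 ± 1.06) and egr3 (0.70 ± 0.768) followed. There jun did not overlap junba, fosl2 did not overlap jund, and jund did not overlap fosl1a, while each other pair of neighbours did.

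Within the summed Jun level, the shares of jun and junba did not overlap between the genotypes, while those of junbb and jund did, and no test was made of these shares. jun made up 31.7% and 36.0% of the summed Jun FPKM in homozygous and 58.7% and 46.5% in heterozygous libraries. junba made up 41.6% and 36.0% in homozygous and 27.1% and 21.6% in heterozygous libraries. junbb made up 25.0% and 23.4% in homozygous and 12.6% and 29.5% in heterozygous libraries, and jund 1.70% and 4.70% in homozygous and 1.57% and 2.41% in heterozygous libraries. The ratio of junba to jun, which needs no scaling between libraries, was 1.31 and 1.0 in homozygous and 0.462 and 0.466 in heterozygous libraries. The ratio of junbb to jun was 0.789 and 0.649 in homozygous and 0.215 and 0.635 in heterozygous libraries. For jund to jun it was 0.0536 and 0.131 in homozygous and 0.0267 and 0.0518 in heterozygous libraries. Neither of these ratios overlapped between the genotypes, but their nearest libraries were almost level, at 0.649 and 0.635 for junbb and 0.0536 and 0.0518 for jund. For junba the nearest were 1.0 and 0.466. The summed Jun level was 603 and 358 FPKM in homozygous and 196 and 123 FPKM in heterozygous libraries, without overlap. The summed Fos level was 118 and 65.3 FPKM in homozygous and 28.2 and 33.0 FPKM in heterozygous libraries, also without overlap. Within the Fos genes the shares overlapped: fosab held 84.2% and 74.6% in homozygous and 37.0% and 81.7% in heterozygous libraries. In heterozygous replicate 1 fosl2 was the main Fos transcript, at 55.0% of the Fos sum. egr1 held at least 94.3% of the summed egr1 and egr3 level in every library.

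**Figure D4:**
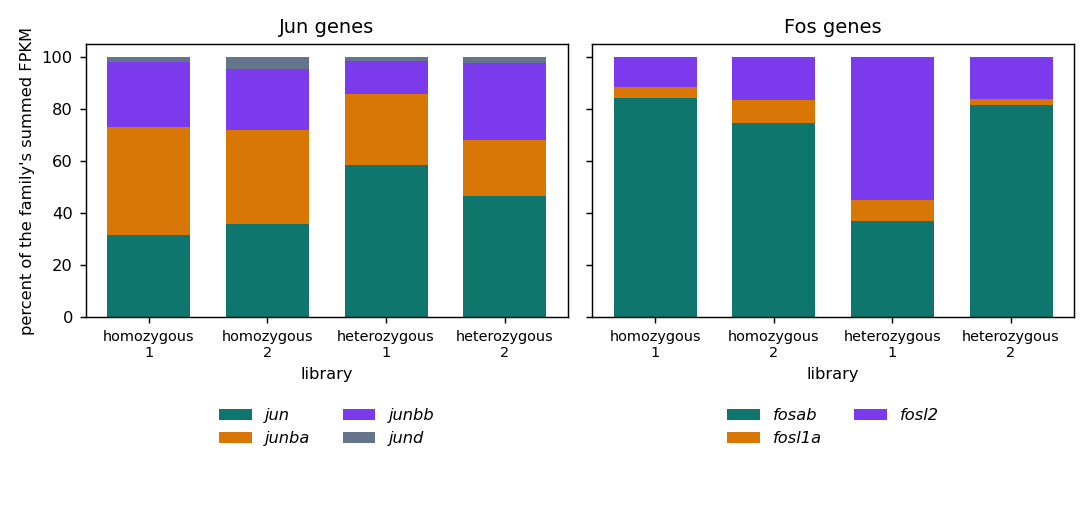
Share of each gene in the summed FPKM of its family, in percent, for the 4 Jun genes (left) and the 3 Fos genes (right), by library. jun takes 31.7% and 36.0% of the Jun sum in homozygous and 58.7% and 46.5% in heterozygous libraries, while the shares of junbb, jund and the Fos genes overlap.

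Other genes of the same pathways were read from the same fit. Of 27 further AP-1 partner and basic leucine zipper genes, 19 were in the table and 13 were tested, with 11 higher, 2 lower and 0 called by edgeR. Both homozygous libraries were highest for 8 of the 13 and lowest for 1, beside 19.9% and 19.3% of all tested genes, and the median log2 fold change was 1.07. Of the 8, 1 had 3 and 0 counts in heterozygous libraries and entered the test only through its higher group. atf7a, a gene of the CREB-like factors, was at 8.59 and 14.1 CPM in homozygous and 4.27 and 5.03 CPM in heterozygous libraries (log2 fold change 1.29 ± 0.48, SE; edgeR adjusted p = 0.699). atf5a, a stress factor gene, was at 8.88 and 6.92 CPM in homozygous and 0.171 and 3.06 CPM in heterozygous libraries (2.22 ± 1.08). fosb, the remaining Fos gene in the table, had 4 and 6 counts in homozygous and 5 and 23 in heterozygous libraries and was not tested. At 0.592 and 0.554 CPM in homozygous and 0.853 and 2.52 CPM in heterozygous libraries, both homozygous libraries were lowest, near the level of 3 counts.

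Among other EGR genes, their NAB corepressors and the wt1 genes, whose products bind EGR-like sites, 7 of 8 were in the table and only 4 were tested, with 0 called. egr2b had 22 and 30 counts in homozygous and 0 and 8 in heterozygous libraries (log2 fold change 2.62 ± 1.26, SE; edgeR adjusted p = 0.699). nab1a, a gene of a protein that restrains EGR factors, was at 1.78 and 2.86 CPM in homozygous and 0.683 and 0.875 CPM in heterozygous libraries (1.55 ± 0.82). Neither heterozygous library reached the filter's 1.27 CPM for egr2b or nab1a, so these genes entered the test only through their higher group. egr2a (0.52 ± 1.17) and wt1b (-2.28 ± 1.21) overlapped between the groups, and wt1b was high in heterozygous replicate 2 alone, at 9.08 CPM.

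Immediate early genes outside AP-1 and EGR went both ways. Of 64 listed, 55 were in the table and 48 were tested, with 31 higher, 17 lower, 0 called and a median log2 fold change of 0.42. Both homozygous libraries were highest for 17 and lowest for 7, where 19.9% and 19.3% of all tested genes were. Of the 17, 1 had 1 and 13 counts in heterozygous libraries, under the filter's 1.27 CPM, and entered the test only through its higher group. dusp2, the gene of a phosphatase that switches off MAP kinases, was at 28 and 14.3 CPM in homozygous and 2.90 and 5.14 CPM in heterozygous libraries (log2 fold change 2.37 ± 0.55, SE; edgeR adjusted p = 0.699, DESeq2 adjusted p = 0.0593). ier2, a nuclear protein gene of the same early response, was at 160 and 65.8 CPM in homozygous and 33.5 and 23.2 CPM in heterozygous libraries (2.0 ± 0.55). On the lower side, ctgfa, the gene of a secreted matrix protein, was at 2.81 and 3.41 CPM in homozygous and 8.36 and 27.1 CPM in heterozygous libraries (-2.51 ± 0.67, edgeR adjusted p = 0.699). klf2a, a factor gene that blood flow induces in endothelium, was at 12.7 and 8.49 CPM in homozygous and 23.9 and 114 CPM in heterozygous libraries (-2.71 ± 0.79). klf2a is the 1 gene of these pathway lists in the authors' deposited table of 76 genes, which gives it a log2 fold change of -2.82 and an FDR of 0.0124 without naming which group is on top. None of the 10 AP-1 and EGR genes is in the authors' deposited table.

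Genes of the MAP kinase cascade and of the SRF and CREB factors, which switch immediate early genes on, were read in the same way. Of 53 listed, 39 were in the table and 35 were tested, with 25 higher, 10 lower and 0 called. Their median log2 fold change was 0.29, against 0.42 for the other immediate early genes. Both homozygous libraries were highest for 10 and lowest for 0, beside 19.9% and 19.3% of all tested genes. raf1b, a Raf kinase gene, was at 11.5 and 16.3 CPM in homozygous and 7.51 and 6.56 CPM in heterozygous libraries (log2 fold change 0.99 ± 0.42, SE; edgeR adjusted p = 0.699). Homozygous replicate 2 was the higher of its pair for raf1b and also for mapk14b, a p38 gene (1.67 ± 0.88), and elk4, the gene of an SRF cofactor (1.36 ± 0.78). That is the reverse of the order seen for 8 of the 10 AP-1 and EGR genes. Other tested genes of this list had homozygous replicate 1 higher, so the order does not describe the whole list.

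Genes listed as AP-1 targets showed no common direction. Of 29 listed, 21 were in the table and 15 were tested, with 7 higher, 8 lower, 0 called and a median log2 fold change of -0.07. Both homozygous libraries were highest for 3 of the 15 and lowest for 1, beside 19.9% and 19.3% of all tested genes. vegfaa, an angiogenic growth factor gene, was at 8.29 and 6.74 CPM in homozygous and 3.41 and 2.52 CPM in heterozygous libraries (log2 fold change 1.34 ± 0.53, SE; edgeR adjusted p = 0.699). The cytokine genes tnfb (2.53 ± 1.01) and il1b (2.54 ± 1.27) were higher in both homozygous libraries but stayed below 3 CPM. Heterozygous libraries had 1 and 4 counts of tnfb and 0 and 7 of il1b, under the filter's 1.27 CPM. These genes therefore entered the test only through their higher group.

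**Figure D5:**
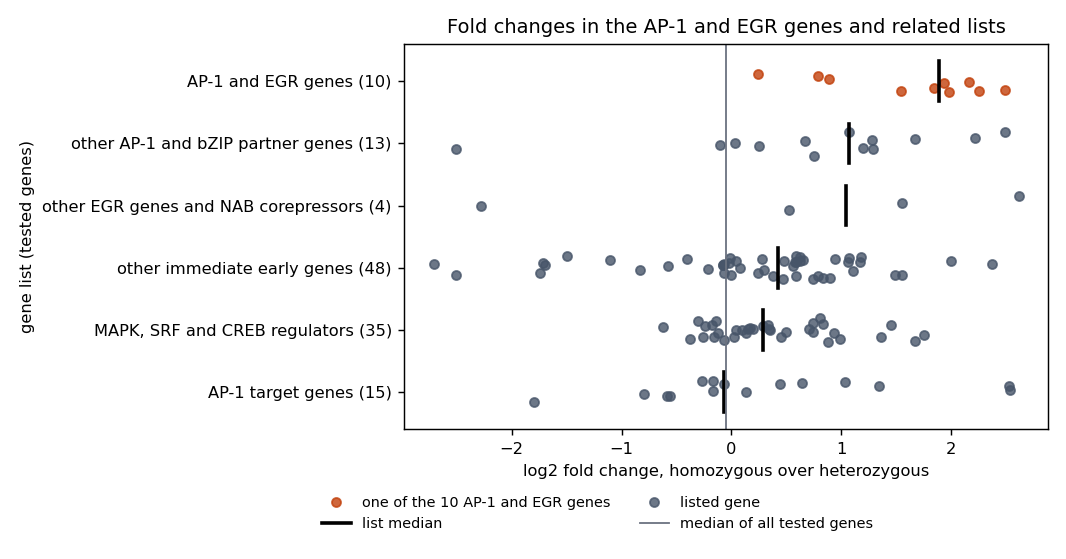
Log2 fold change, homozygous over heterozygous, of each tested gene in the 10 AP-1 and EGR genes (orange) and 5 related lists (grey), with list medians (black bars) and the median of all tested genes (grey line). The list medians run from 1.89 for the AP-1 and EGR genes to -0.07 for AP-1 target genes. The vertical scatter within a list has no meaning.

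Across all tested genes 19.9% had both homozygous libraries highest and 19.3% lowest, beside which the counts of marker genes here are given. Summed marker shares below are of unscaled counts, without TMM. Those of T and NK lymphocyte and mononuclear phagocyte markers did not overlap between the genotypes. T and NK lymphocyte markers, 14 of 15 in the table, took 0.0297% and 0.0138% of counts in homozygous and 0.00307% and 0.00668% in heterozygous libraries. Their exact 95% intervals were 0.0284 to 0.0310, 0.0131 to 0.0146, 0.00265 to 0.00353 and 0.00619 to 0.00719, and rag1 was at 0 in every library. These intervals cover counting within each library and not the spread between fish. Libraries of the same genotype lay outside each other's intervals. Of 12 tested members 10 had both homozygous libraries highest. Of the 14, 3 had 0 counts in heterozygous replicate 1, and only rag1 had 0 in the other libraries. How many marker genes entered the test only through their higher group was not counted, and such genes separate more easily. Neutrophil markers, 12 of 14 in the table, took 0.0394% to 0.0426% of counts in homozygous and 0.0218% to 0.0362% in heterozygous libraries, with both homozygous libraries highest for 3 of 11 tested members. The nearest of these shares, in homozygous replicate 2 and heterozygous replicate 1, change order under the TMM factors of 1.16 and 0.923. The neutrophil groups therefore overlap after scaling. Mononuclear phagocyte markers, 16 of 18 in the table, took 0.0496% and 0.0664% in homozygous and 0.0830% and 0.118% in heterozygous libraries, with both homozygous libraries lowest for 10 of 15 tested members and highest for 1. In homozygous replicates 1 and 2, 3 and 1 of the 16 had 0 counts, and none had 0 in heterozygous libraries. This list holds the targeted gene irf8 itself, which is among those 10. Smooth muscle and stroma markers, 16 of 19 in the table and pdgfrb at 0 throughout, overlapped, at 0.0547% to 0.311% in homozygous and 0.0489% to 0.243% in heterozygous libraries, but 6 of 13 tested members had both homozygous libraries lowest and 0 highest (median log2 fold change -1.83). Enterocyte markers overlapped in their summed share, at 8.88% and 10.7% in homozygous and 11.5% and 3.10% in heterozygous libraries, while 6 of 15 tested members had both homozygous libraries highest and 0 lowest. DESeq2 called 3 of the 15 higher, beside 0.422% of all genes it adjusted. It also called 1 T and NK lymphocyte marker higher and 0 in each other marker list. Enteric neuron markers (0.00174% to 0.00563% in homozygous and 0.00112% to 0.00477% in heterozygous libraries) and liver markers (0.0277% to 0.120% and 0.0103% to 0.448%) overlapped too. The part of these cell types in the values of the AP-1 and EGR genes was not tested. Leaving exocrine pancreas and liver markers out of the table before scaling kept the count of 8 genes with both homozygous libraries highest.

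The genes whose pattern over the 4 libraries came nearest to the mean pattern of the 10 were chia.3, a chitinase gene with close copies whose counts are therefore uncertain, ubald1b, vaspa, an actin regulator gene, penka, an enkephalin precursor gene, and efna1b, an ephrin gene. Nearness was the Euclidean distance between centred log2 CPM values, which was 0.212, 0.212, 0.252, 0.286 and 0.288 for these genes among 7439 genes with a mean of at least 5 CPM. The distances of the 10 genes from their own mean were wider, 0.603 for junbb at the least and 2.10 for atf3 at the most. Set among the 7439 genes by distance, junbb would rank 38, egr1 1376, egr3 3922 and atf3 4458. The mean pattern therefore describes egr3 and atf3 poorly. chia.3 was at 23900 and 15900 CPM in homozygous and 7070 and 4940 CPM in heterozygous libraries. vaspa was at 23.7 and 13.9 CPM in homozygous and 6.83 and 5.25 CPM in heterozygous libraries. With only 4 libraries many genes share such a pattern.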

How the data were processed

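Raw counts of read pairs were deposited for every gene. According to the command line in that table, and so per the file headers, they came from featureCounts from Subread 1.5.2 over exons of the UCSC danRer10 annotation, with reverse-strand setting 2. Per the submitters' processing notes DESeq2 and R 3.3.1 were also used. The sources used here name no aligner. A second deposited table gives 76 genes with the authors' log2 fold changes and p-values; it was read only for listed genes.

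Low genes were removed by filterByExpr (at least 10 counts, total of at least 15) and libraries were scaled by TMM. Genotypes were compared by edgeR's quasi-likelihood F test with genotype as the only term (edgeR 4.0.16, R 4.3.3). P-values were adjusted over all tested genes by Benjamini-Hochberg and called at 0.05. Standard errors follow from the F statistic. DESeq2 1.42.0 was an alternative. The functions were tested on simulated counts with the same fixed dispersion for every gene, which checks the code and not the power in these data. PCR copies were not told apart, so intervals and floors cover counting error only.

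The 10 genes, the lists and the tests were chosen with earlier results of these data known. Named genes are the 10, irf8, up to 4 tested genes per list by smallest unadjusted p, and the 5 nearest patterns, except a few genes not reported here; fosb, rag1 and pdgfrb were named after their values were seen. Listed symbols missing from the table were matched by synonyms of the assembly GRCz12tu, for names only. The design text describes the 4 libraries as separate animals.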

Additional observations from a re-analysis of the deposited data

How the results depend on the processing

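The count of genes called over the whole table was 0 with edgeR under DESeq2's size factors, other count filters, the newer quasi-likelihood form, an adjusted p of 0.1, and with pancreas, liver or dominant genes left out. It was 58 by DESeq2's Wald test, and 0 to 45 with each library left out, the 45 without heterozygous replicate 1. With the replicate number as a block (replicate block) 0 genes were called and 10 of the 10 AP-1 and EGR genes were above 0. Same-numbered libraries deviated together only weakly (r = 0.0643 across genes), so the numbers are not taken to pair fish. In log2 CPM the libraries did not group by genotype. Heterozygous replicate 1 correlated more with homozygous replicates 1 and 2 (r = 0.911 and 0.887) than with heterozygous replicate 2 (r = 0.852). The number of the 10 genes with both homozygous libraries highest was 8 under each other scaling and filter, and 8 to 9 with 1 library left out, where groups separate more easily (29.6% to 38.1% of all tested genes). Of the 10 fold changes, fosl2 reversed, in a range of -0.35 (without heterozygous replicate 2) to 1.26 (without heterozygous replicate 1). junba, junbb and egr1 were called by DESeq2 (log2 fold changes 2.24, 1.94 and 2.49). With 1 library left out, DESeq2's calls among the 10 genes changed, and no call held in every such fit. The other immediate early genes with both homozygous libraries highest numbered 21 to 30 of 48 to 51 tested with each library left out, against 17 of 48. Those with both lowest numbered 8 to 14, against 7. All tested genes also separated more often in these fits, with 29.6% to 38.1% highest and 30.2% to 38.1% lowest. Fits without 1 library assume that the lone library of a genotype varies like the other genotype. These DESeq2 fits and list counts were added after the data were seen. With 2 fish per genotype, egr3 and fosl1a rest on few counts.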
